A study of Mus musculus with 9 samples.

Results

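The DnaJ co-chaperones, also called J proteins or Hsp40 proteins, were examined in preparations labelled as spermatogonia of adult Balb/C mice. They were taken as all probe sets whose 1 platform gene symbol begins with Dnaja, Dnajb or Dnajc followed by a number, which gave 104 of the 45101 probe sets on the array, from 44 of the array's 18194 genes with such a symbol. Class A had 4 genes and 13 probe sets, class B had 13 genes and 23 probe sets, and class C had 27 genes and 68 probe sets. The 9 arrays formed 3 groups of 3: mice on a vitamin A-deficient diet (VAD) for 18 weeks, mice on that diet for 25 weeks, and mice on a normal diet as controls. Each preparation came from the testes of 2 mice from which germ cells were plated overnight and then sorted by sedimentation through albumin. Neither the age of the normal-diet mice nor whether each array had a preparation of its own is given in the sources used here, and p-values therefore measure only the spread between these arrays. Of the 104 probe sets, 91 from 43 genes passed the filter on signal. Those below it were 13 probe sets, among them both probe sets of Dnajc22, the 1 gene with no probe set left. The filter stood at a mean log2 signal of 3.39, with a Dnajb5 probe set (1421961_a_at) just below it at 3.33 and a Dnajc6 probe set (1433596_at) just above it at 3.52.

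A J protein carries a J domain that makes an Hsp70 chaperone hydrolyse ATP and close on its client protein, and so decides where and on what an Hsp70 works. Class A members have the J domain, a glycine-rich stretch and a zinc finger, class B members lack the zinc finger, and class C members share little beyond the J domain. Germ cells of the testis carry J proteins of their own, such as Dnajb3 of spermatids and Dnajb13 of the sperm tail, and an Hsp70 of their own, Hspa2, which meiotic cells need. In mice, loss of Dnaja1 disturbs spermatogenesis.

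The 250 bases before the transcription start of 4 members are shown because these genes held called probe sets at 25 weeks and their windows held different sets of the motifs searched. They are from RefSeq, build GRCm38.p6, and each is the most upstream start that the table lists for its gene. The windows lie at chr4:40722218-40722467 on the plus strand for Dnaja1, chr5:29735648-29735897 on the plus strand for Dnajb6, chr14:118937682-118937931 on the plus strand for Dnajc3 and chr1:88205749-88205998 on the minus strand for Dnajb3. Capitals mark matches on either strand to GAANNTTC or TTCNNGAA (heat shock element cores), CCACG and CCAAT (the end motifs of the ER stress element) or TGACGTCA (a cAMP response element).
Dnaja1: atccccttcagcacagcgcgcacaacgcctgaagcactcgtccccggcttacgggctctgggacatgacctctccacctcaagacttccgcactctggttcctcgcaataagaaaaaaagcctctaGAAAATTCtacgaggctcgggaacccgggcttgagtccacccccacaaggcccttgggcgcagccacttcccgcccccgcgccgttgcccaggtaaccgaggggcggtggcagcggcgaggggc
Dnajb6: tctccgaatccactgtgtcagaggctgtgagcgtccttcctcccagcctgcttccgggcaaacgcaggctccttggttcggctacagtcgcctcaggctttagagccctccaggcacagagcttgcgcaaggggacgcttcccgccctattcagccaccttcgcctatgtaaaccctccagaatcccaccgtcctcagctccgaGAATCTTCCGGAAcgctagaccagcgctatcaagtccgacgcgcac
Dnajc3: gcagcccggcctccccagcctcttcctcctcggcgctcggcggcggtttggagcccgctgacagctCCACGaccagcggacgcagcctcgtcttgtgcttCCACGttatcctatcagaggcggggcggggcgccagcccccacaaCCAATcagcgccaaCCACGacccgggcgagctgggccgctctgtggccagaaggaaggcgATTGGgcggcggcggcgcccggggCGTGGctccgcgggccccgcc
Dnajb3: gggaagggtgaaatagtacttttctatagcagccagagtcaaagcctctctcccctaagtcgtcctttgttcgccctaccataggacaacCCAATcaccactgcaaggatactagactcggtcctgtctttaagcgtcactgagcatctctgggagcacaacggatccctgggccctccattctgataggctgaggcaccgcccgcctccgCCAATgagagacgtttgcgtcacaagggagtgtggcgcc
The Dnajb6 window held GAANNTTC and TTCNNGAA overlapping each other, and the Dnaja1 window held 1 GAANNTTC. The Dnajc3 window held 4 matches to CCACG and 2 to CCAAT, and 1 CCAAT lay 9 bases before a CCACG, which completes the ER stress element. That spacing was searched after the letters had been seen, and 0.113% of all 32851 windows held it. The Dnajb3 window held 2 CCAAT. Over the 36 member genes with a window in the table, GAANNTTC stood in that of 4 genes (10.2% of 49 windows, against 6.69% of all windows) and TTCNNGAA in that of 3 (8.16%, against 7.17%). CCACG stood in 49% of the member windows, against 28.3% of all windows, CCAAT in 34.7%, against 33.8%, and TGACGTCA in 2.04%, against 1.55%. These matches describe letters in a window and nothing more.

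The arrays were not uniform. VAD 25-week replicate 3 and control replicate 3, called the dim arrays, reached a 2% trimmed mean signal of no more than 23.3, while the remaining 7 arrays ranged over 55.6 to 186. VAD 25-week replicates 1 and 2 were the brightest and had mean poly-A control signals of 226 and 274, against at most 8.72 elsewhere. Values below are log2(signal + 3.259) after quantile normalization, so each is relative to the whole array, and differences are log2 fold changes from limma with a block for the dim arrays. With group as the sole term limma called 0 of the 91 probe sets in every comparison at an adjusted p under 0.05, and 0 of all 27022. At an unadjusted p under 0.05 that model had 5 of the 91 at 18 weeks, 10 at 25 weeks and 4 between the VAD groups. Over all 27022 probe sets it had 1955, 3211 and 1031 in the same order. Every call below rests on setting the dim arrays apart, by the block or by leaving them out, and the block was chosen with that outcome known. No control or 18-week array had the poly-A control signal of VAD 25-week replicates 1 and 2, so outside the dim arrays that signal and 25 weeks of diet cannot be told apart.

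Markers of other cells moved with the diet. Beside the counts here, 9.05% of all 13616 genes, by 1 probe set each, were called higher and 7.95% lower at 25 weeks, and 1.51% at 18 weeks. Of 16 measured Sertoli cell markers, 7 rose and 0 fell at 18 weeks, and 11 rose and 0 fell at 25 weeks, with medians of 1.72 and 1.51. Their summed normalized signal was 877 to 2690 at 18 weeks and 1090 to 2050 at 25 weeks, against 309 to 407 in controls. Of 6 measured leukocyte markers 5 rose at 25 weeks (summed signal 244 to 408, against 114 to 267 in controls). Of 4 Leydig markers 1 rose at 25 weeks (271 to 301, against 32.4 to 132 in controls). Of 8 immediate early genes, which respond to cell handling, 4 rose at 25 weeks (758 to 1080, against 181 to 297 in controls). Of 10 spermatid markers 2 fell at 25 weeks (4520 to 16300, against 6950 to 16800 in controls). Of 10 pachytene spermatocyte markers 3 rose and 5 fell at 25 weeks (23700 to 27700, against 25000 to 31700 in controls). For the labelled cell type 2 lists of spermatogonia markers were read. Of 10 undifferentiated spermatogonia markers on the array 6 passed the filter, with a summed signal of 543 to 673 at 18 weeks and 656 to 767 at 25 weeks, against 347 to 384 in controls, while Ret, Lin28a, Sall4 and Cdh1 lay below it. All 8 markers of differentiating spermatogonia passed, with a summed signal of 1230 to 1290 at 18 weeks and 608 to 870 at 25 weeks, against 834 to 1750 in controls. Of these 8, 0 were called at 18 weeks, while at 25 weeks 2 rose (Kit at 1.34 and Dnmt3b at 1.26) and 1 fell (Dmrtb1 at -1.18, limma adjusted p = 0.000174), genes named after their values were seen. The filter was also passed by all 10 markers of pachytene spermatocytes and all 10 of spermatids. In controls their summed signals, 25000 to 31700 and 6950 to 16800, lay above those of both spermatogonia lists. The markers thus do not bear out a preparation of spermatogonia alone, though sums over unlike probe sets do not measure shares of cells. Among the defining markers of other cells Sox9 and Amh (Sertoli), Hsd17b3 (Leydig) and Ptprc, C1qa, C1qc and Cd68 (leukocytes) lay below the filter. In bulk RNA fewer cells of a type and less RNA per cell cannot be told apart, and the part of other cells in the J protein values was not tested.

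At 18 weeks of deficiency no J protein probe set passed the threshold. Limma with the block called 0 of 91, where it called 1.46% of all probe sets, and the smallest adjusted p among the members was 0.0517. At an unadjusted p under 0.05 there were 11 members (all probe sets: 16.5%). The median of the members was -0.02, against -0.01 over all probe sets, and 90 of the 91 lay within 1 log2 unit of control (all probe sets: 95.1%). The exception, named after its value was seen, was a Dnajc17 probe set (1420165_s_at) at 1.09, which did not pass. For 74 of them the 95% interval as well lay within 1 log2 unit. The smallest adjusted p belonged to a Dnaja1 probe set (1459835_s_at), at 0.87 ± 0.19 (SE, n = 3 per group, limma). Without the dim arrays 3 members were called higher (Dnaja1, Dnajc3 and Dnajc10) and 1 lower (Dnajb6), where 3.98% of all probe sets were called. Leaving out control replicate 3 alone gave the same counts, and leaving out VAD 25-week replicate 3 alone gave 2 and 1. The share of all probe sets called was then 3.82% and 3.69%. With 1 dim array gone, the block fits the other one exactly. These settings therefore nearly repeat the fit without the dim arrays and are not separate checks. Dnajc10, an endoplasmic reticulum (ER) protein that reduces disulphide bonds, came next at 0.79 ± 0.18 (limma adjusted p = 0.0574). Its log2 signals were 8.60, 8.63 and 9.06 at 18 weeks, against 7.85, 8.25 and 8.48 in controls, and the groups did not overlap. How often groups separate over all probe sets was not counted, so here and below a lack of overlap describes the arrays and adds no support. The other Dnajc10 probe sets were at -0.07 and 0.20.

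Several well-known members had 18-week values near 0 by their representing probe sets. Dnajb1, the heat-inducible cytosolic Hsp40, was at 0.00 with a 95% interval of -0.29 to 0.30. Dnajb9, an ER member induced by misfolded protein, was at 0.00 (-0.26 to 0.26). Dnajc3, also of the ER, was not near 0, at 0.46 (0.07 to 0.85, limma adjusted p = 0.23). Its other kept probe sets were at 0.79, 0.76 and 0.21, and none of them passed. For Dnajb6, which keeps proteins from aggregating, the brightest probe set was at -0.02 (-0.28 to 0.23), but 1429776_a_at was at -0.46 (-0.78 to -0.14) and 1429777_at at -0.32 (-0.59 to -0.04), with limma adjusted p of 0.145 and 0.24. The fourth Dnajb6 probe set was at 0.06, and the second of Dnajb1 at -0.20 (-0.55 to 0.15). Dnajc8, a splicing-associated member, read 9.04, 9.05 and 9.48 at 18 weeks, against 8.81, 8.63 and 9.26 in controls, a difference of 0.49 ± 0.15 (limma adjusted p = 0.14). Dnajc5, the cysteine string protein of vesicles, by 1436180_at read 7.80, 7.64 and 7.68 at 18 weeks, against 7.23, 7.09 and 6.96 in controls, a difference of 0.47 ± 0.16 (limma adjusted p = 0.176). The groups did not overlap for this Dnajc5 probe set and did for Dnajc8. The other 4 kept Dnajc5 probe sets were at -0.17, -0.06, -0.07 and -0.16 with overlapping groups, and the other Dnajc8 probe set was at 0.36. Values at 18 weeks from the block are not plain differences of group means, since the block's offset is shared with the 25-week arrays.

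**Figure D1:**
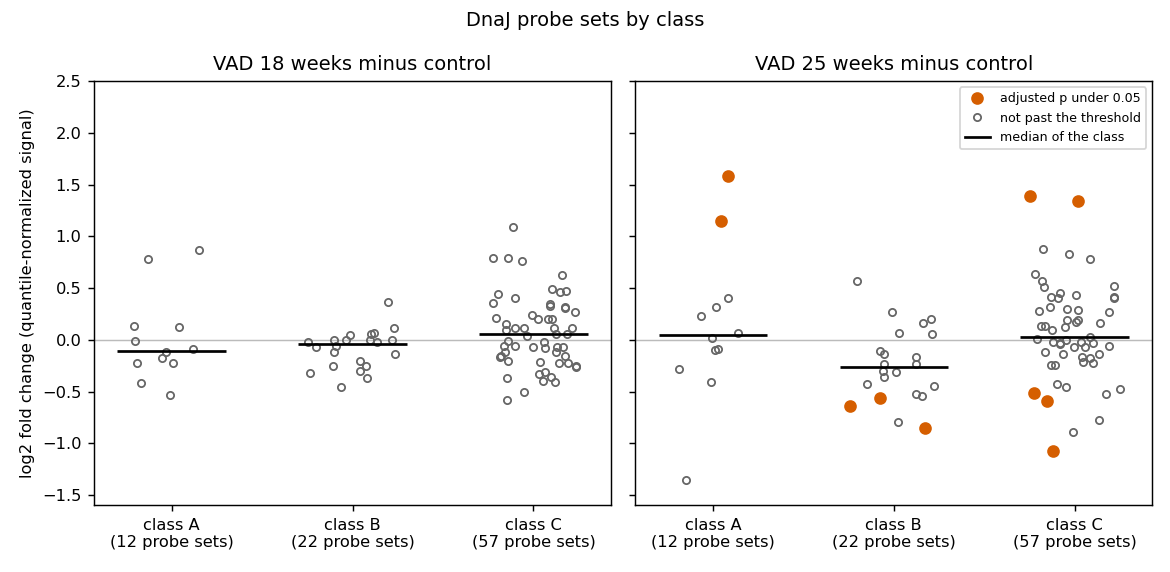
Log2 fold change of each of the 91 DnaJ probe sets that passed the filter, by class, for VAD 18 weeks minus control (left) and VAD 25 weeks minus control (right). Filled points passed an adjusted p under 0.05 and black lines are class medians: no point is filled at 18 weeks, and 10 are at 25 weeks.

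At 25 weeks 4 J protein probe sets were higher and 6 were lower than control. The higher ones belonged to Dnaja1 and Dnajc3 (both with 2 probe sets called), and the lower ones to Dnajb1, Dnajb3, Dnajb6, Dnajc1, Dnajc16 and Dnajc27. On the deposited scale all of the lower ones except Dnajc1 were above control. Limma called 11% of the 91 members, against 14.8% of all probe sets. By direction, 4 of the 91 members were called higher, where 8.51% of all probe sets were, and 6 of the 91 were called lower, where 6.29% of all probe sets were. Class A had 2 higher and 0 lower of 12, class B 0 higher and 3 lower of 22, and class C 2 higher and 3 lower of 57. The class medians were 0.05, -0.26 and 0.03, against -0.01 over all probe sets. Across the classes 85 of 91 members stayed within 1 log2 unit of control (all probe sets: 90.4%), and 66 had a 95% interval within that range. Leaving out VAD 25-week replicate 1 or control replicate 1 left 3 members lower, and leaving out VAD 25-week replicate 2 left 2. The share of all probe sets called was then 7.31%, 7.71% and 6.62%. Leaving out either dim array, which nearly repeats the fit without both, gave 8 higher and 6 lower. The share of all probe sets called was then 15.4% without control replicate 3 and 15.3% without VAD 25-week replicate 3. Counting each gene once, by its brightest kept probe set with cross-hybridising types used last, 0 of 43 genes were called higher and 3 lower (Dnajb3, Dnajc16 and Dnajc27), against 9.05% and 7.95% of all 13616 genes. The 18-week share on that count was 0 of 43, against 1.51%.

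Dnaja1, a cytosolic class A partner of Hsc70, had the largest increase among the members called. Probe set 1459835_s_at read 8.34, 8.28 and 6.72 in VAD 25-week replicates 1 to 3 and 7.40, 7.47 and 7.82 at 18 weeks, against 6.42, 6.90 and 5.27 in controls. Each 25-week array lay above the control array of its own kind, dim or bright, but the dim 25-week array lay below 1 bright control. The difference from control was 1.58 ± 0.18 (limma adjusted p = 0.00067), being 1.45 between the dim arrays and 1.65 over the others. Probe set 1460179_at read 7.98, 7.95 and 10.10 at 25 weeks and 7.54, 7.31 and 8.12 at 18 weeks, against 6.89, 6.98 and 8.72 in controls. Here the dim arrays were the highest of their groups, the groups overlapped, and the difference was 1.15 ± 0.20 (limma adjusted p = 0.00413). The third probe set, 1416288_at, represents the gene by the rule, and did not pass. It read 11.53, 11.56 and 10.79 at 25 weeks, against 11.24, 11.26 and 10.71 in controls, a difference of 0.23 ± 0.10 (limma adjusted p = 0.156).

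Dnajc3, known as P58IPK, is an ER lumen co-chaperone of BiP and an inhibitor of eIF2-alpha kinases. Probe set 1419162_s_at read 6.92, 6.98 and 7.21 at 25 weeks and 6.25, 6.28 and 6.60 at 18 weeks, against 5.40, 5.93 and 5.62 in controls. All 25-week arrays lay above all controls, and so did the 18-week arrays. The difference at 25 weeks was 1.39 ± 0.20 (limma adjusted p = 0.002). Probe set 1433887_at read 7.67, 7.62 and 7.49 at 25 weeks and 7.03, 6.93 and 6.68 at 18 weeks, against 5.90, 5.84 and 7.03 in controls. Its difference was 1.34 ± 0.24 (limma adjusted p = 0.00529), which was 0.47 between the dim arrays and 1.77 over the others. Every bright array at 25 weeks lay far above the bright controls, and the dim control was the highest control. The representing probe set, 1449372_at, read 7.48, 7.40 and 7.30 at 25 weeks and 7.60, 7.50 and 7.22 at 18 weeks, against 6.90, 7.16 and 6.57 in controls. Its VAD groups did not overlap with control, yet the 25-week difference of 0.52 ± 0.17 did not pass (limma adjusted p = 0.0614), nor did the 0.64 of 1419163_s_at (0.179).

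Dnajb3, known as Msj-1 and made in mouse spermatids, was the member of the testis-enriched list that fell. It read 9.44, 9.33 and 9.32 at 25 weeks and 9.88, 9.79 and 9.85 at 18 weeks, against 10.08, 9.94 and 9.74 in controls. All 25-week arrays lay below all control and all 18-week arrays. The difference from control was -0.56 ± 0.11 (limma adjusted p = 0.00771), at -0.42 between the dim arrays and -0.63 over the others. Before normalization its deposited signals were 2050, 1490 and 198 at 25 weeks, against 1080, 1010 and 277 in controls, so the bright 25-week arrays were above the bright controls in signal and below them relative to their arrays. The 6 testis-enriched members had a median of -0.33 at 25 weeks, against -0.03 over all genes, with 1 lower. Dnajb8, which blocks aggregation of polyglutamine proteins, read 7.12, 7.48 and 7.49 at 25 weeks, against 7.92, 7.44 and 8.34 in controls, groups that overlapped, with a difference of -0.54 (95% interval -1.01 to -0.06, limma adjusted p = 0.125). Dnajc5b, a cysteine string protein of the testis, was at -0.43 (-0.90 to 0.05), and Dnajb13, of the axonemal radial spoke, at -0.23 (-0.60 to 0.14). Dnajb7 and Dnajc5g, the rest of the list, were at -0.17 and -0.14. Spermatid markers, in whose cells Dnajb3 is known, had a median of -0.33 in the same comparison, with 2 of 10 called lower. At 18 weeks their median was -0.47 with 0 called, where Dnajb3 was at -0.14. A link between the spermatid markers and Dnajb3 was not tested.

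Dnajb6 and Dnajb1 each had 1 probe set that fell and a brighter one that did not pass. For Dnajb6, 1429776_a_at read 8.48, 8.45 and 7.83 at 25 weeks and 8.97, 8.86 and 8.99 at 18 weeks, against 9.48, 9.50 and 8.32 in controls. The bright controls lay above every VAD array, and the dim control lay below the bright 25-week arrays, so the groups overlapped. The difference was -0.85 ± 0.14 (limma adjusted p = 0.00306), while the remaining probe sets were at 0.07, -0.23 and -0.45. For Dnajb1, 1416756_at read 9.47, 9.36 and 9.12 at 25 weeks and 10.04, 10.11 and 9.69 at 18 weeks, against 10.24, 10.25 and 9.35 in controls. The bright 25-week arrays lay just above the dim control, so the groups overlapped, and the difference was -0.64 ± 0.15 (limma adjusted p = 0.0172), at -0.24 between the dim arrays and -0.83 over the others. The representing Dnajb1 probe set, 1416755_at, read 11.44, 11.41 and 11.56 at 25 weeks, against 11.70, 11.78 and 11.36 in controls, a difference of -0.14 (95% interval -0.42 to 0.14).

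**Figure D2:**
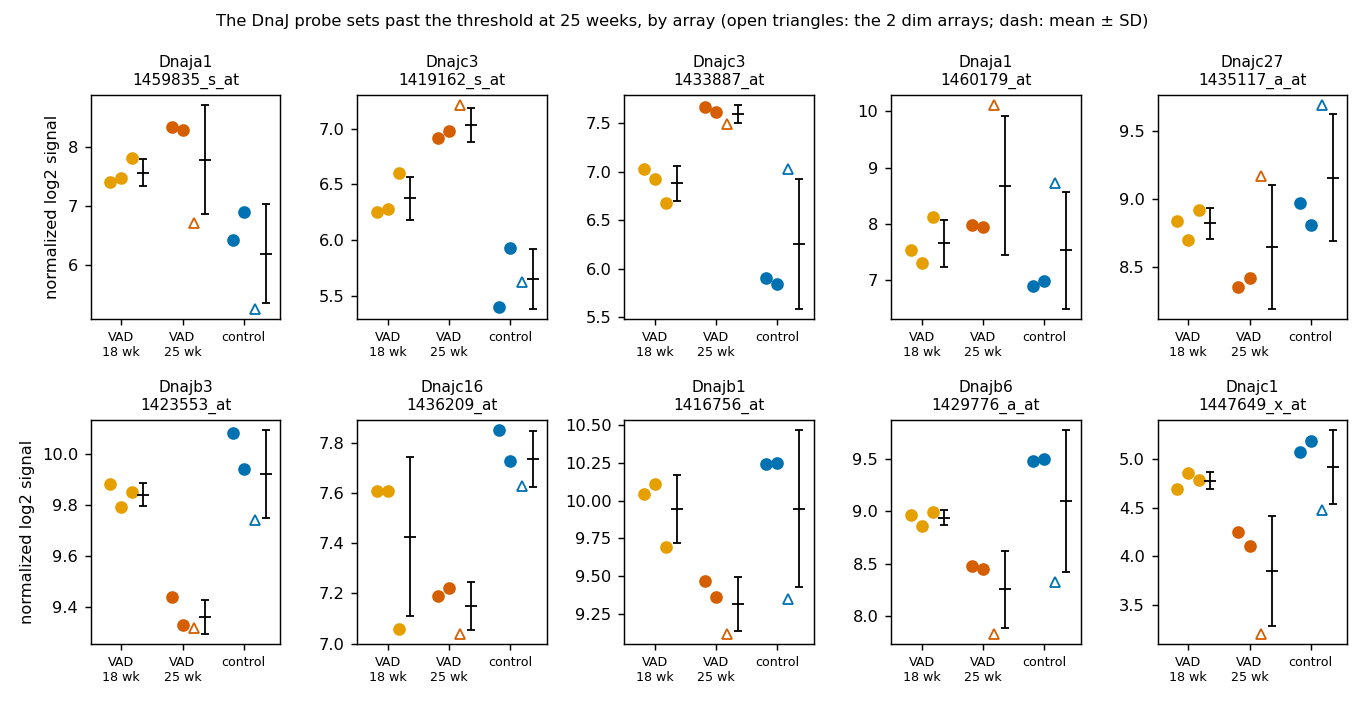
Normalized log2 signal on each array for the 10 DnaJ probe sets past the threshold at 25 weeks, for VAD 18 weeks, VAD 25 weeks and control. Open triangles are the 2 dim arrays and black bars the mean ± SD of 3 arrays: Dnajb3, Dnajc16 and Dnajc1 sat below every control at 25 weeks, and both Dnajc3 probe sets above, while the overlap in the others involves a dim array. The probe sets shown were chosen by these same values, and some uncalled members, such as a Dnaja2 probe set, also separated from control.

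The other members that fell were of class C. Dnajc16, an ER membrane protein linked to autophagosome size, read 7.19, 7.22 and 7.04 at 25 weeks and 7.61, 7.61 and 7.06 at 18 weeks, against 7.85, 7.73 and 7.63 in controls. All 25-week and all 18-week arrays lay below all controls, and the 25-week difference was -0.59 ± 0.17 (limma adjusted p = 0.0424), which did not pass without the dim arrays (0.0704). Its other probe set was at 0.40. Dnajc27, a Rab-like GTPase with a J domain, read 8.35, 8.42 and 9.17 at 25 weeks and 8.84, 8.70 and 8.92 at 18 weeks, against 8.97, 8.81 and 9.69 in controls. Its groups overlapped through the dim arrays, which were the highest of their groups, and the difference was -0.51 ± 0.12 (limma adjusted p = 0.0168). Dnajc1, an ER membrane partner of BiP, is named after its values were seen: its dim probe set 1447649_x_at, of a type prone to cross-hybridisation, was at -1.07 ± 0.25 (limma adjusted p = 0.0161), and its representing probe set at 0.09.

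Probe sets of the same gene often differed. Of 26 genes with more than 1 kept probe set, 7 had both a called and an uncalled one, and the median span between the lowest and the highest fold change at 25 weeks was 0.70. The largest span, 1.75, belonged to Dnaja2, from -1.35 (limma adjusted p = 0.0574) to 0.40 (0.051). Which transcripts each probe set reads was not examined, and 3 of the 10 called probe sets are of types that can match other transcripts.

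**Figure D3:**
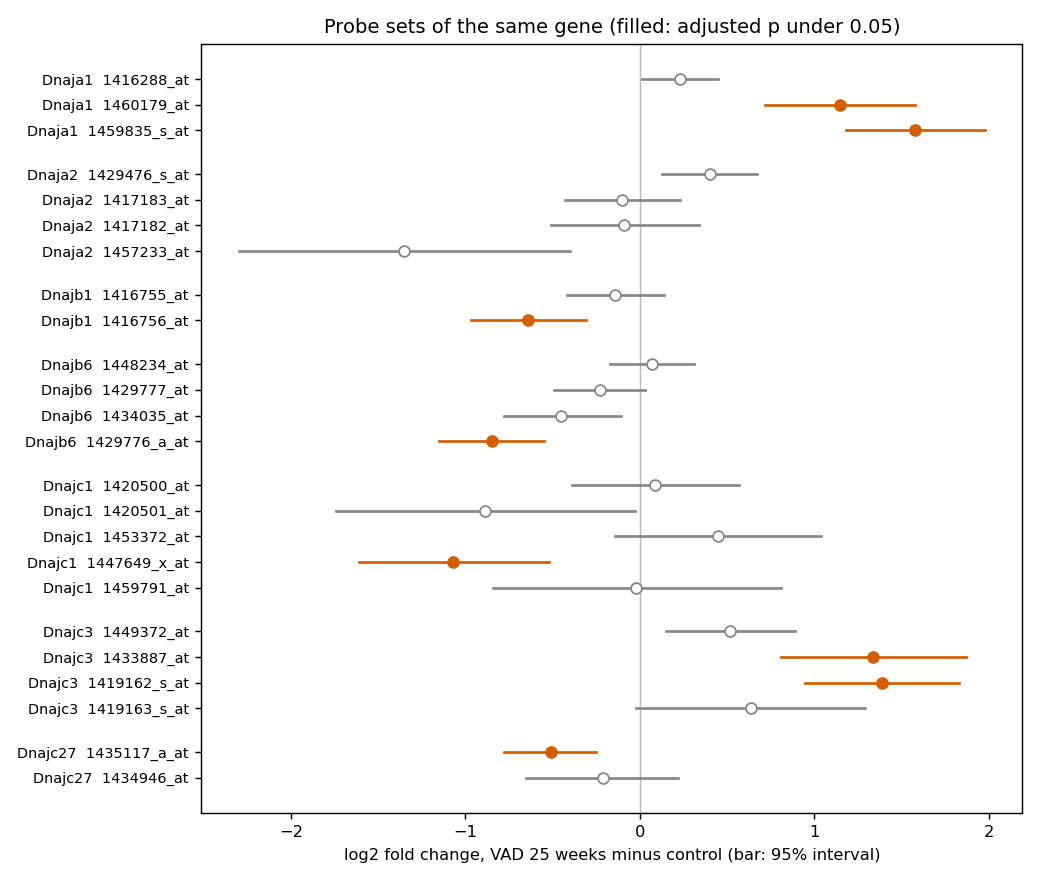
Log2 fold change, VAD 25 weeks minus control, with its 95% interval, for each kept probe set of 7 genes, brightest first. Filled points passed an adjusted p under 0.05: the brightest Dnaja1, Dnajb1, Dnajb6 and Dnajc3 probe sets did not pass while dimmer ones of the same genes did.

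By place of work, the lists of J proteins other than the testis-enriched one had no gene past the threshold by its representing probe set at 25 weeks. These lists do not hold every member: Dnajc16, an ER membrane protein, and Dnajc27 stand in none of them, and both were called lower. The 8 ER members listed, without Dnajc16, had a median of -0.07, with Dnajb11, which binds unfolded chains with BiP, at -0.31 (95% interval -0.62 to 0.00), Dnajb9 at 0.16 (-0.08 to 0.41) and Dnajc10 at 0.40 (0.02 to 0.78). The 8 cytosolic and nuclear members of classes A and B had a median of -0.11. Dnajb2, which carries ubiquitin-binding motifs, read 9.49, 9.61 and 10.38 at 25 weeks, against 9.93, 9.95 and 10.67 in controls, a difference of -0.36 (limma adjusted p = 0.0518). Dnaja4 read 7.50, 7.16 and 8.12 at 25 weeks, against 7.74, 8.04 and 8.22 in controls, a difference of -0.41 (limma adjusted p = 0.23). Dnaja2, a cytosolic partner of Hsc70 like Dnaja1, read 7.89, 7.93 and 7.87 at 25 weeks, against 8.02, 7.94 and 8.03 in controls, a difference of -0.10. The Dnaja2 groups did not overlap, though by a narrow gap, and those of Dnajb2 and Dnaja4 did. The 4 measured mitochondrial members had a median of 0.11, and Dnaja3, the mitochondrial class A protein, read 6.93, 6.34 and 6.54 at 25 weeks, against 6.43, 6.63 and 6.68 in controls, a difference of 0.02 (-0.45 to 0.50). The 5 members of ribosome, RNA and chromatin work had a median of 0.16, with the ribosome-bound Dnajc2 at 0.13 (-0.29 to 0.56). The 5 members of vesicles and endosomes had a median of -0.14, and Dnajc5b and Dnajc5g among them also stand in the testis-enriched list. The 3 J domain genes with other names lay between -0.20 and -0.15. Over all genes the median was -0.03.

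The chaperone partners were counted by gene, where 9.05% of all 13616 genes were called higher and 7.95% lower at 25 weeks. At 18 weeks 1.51% were called. A count of 1 in a list at 25 weeks is near those shares. On the Hsp70 list, which also held Hspa4, Hspa4l, Hsph1 and Hyou1, 1 of 13 genes rose at 25 weeks, the stress-inducible Hspa1b. Its near-identical copy Hspa1a may share its signal. Hspa1b lay above the highest member value, 1.58, while the lowest member value, -1.35, lay below that of Hspa2. The Hspa1b signals follow. Hspa1b read 8.59, 8.75 and 7.40 at 25 weeks and 4.39, 7.21 and 6.83 at 18 weeks, against 5.62, 5.66 and 3.36 in controls, a 25-week difference of 3.37 ± 0.56 (limma adjusted p = 0.00372). Hspa2, the germ cell Hsp70, read 10.40, 10.35 and 11.73 at 25 weeks and 11.28, 11.29 and 11.11 at 18 weeks, against 11.28, 11.34 and 11.78 in controls. It fell by 0.64 on the log2 scale (limma adjusted p = 0.0184), and was 0.23 above control on the deposited scale. The fall lay in the bright 25-week arrays, which have the high poly-A control signal. Without the dim arrays the difference was -0.94, while the dim 25-week array read 11.73 against 11.78 in the dim control. Of the 8 immediate early genes 4 also rose at 25 weeks, and their part in the Hspa1b value was not tested. Hspa8, the constitutive cytosolic Hsp70, was at 0.29 and Hspa5, the BiP of the ER, at -0.16, neither past the threshold. Hspa1b and Dnajb1 are both textbook heat shock genes, and their 25-week values were 3.37 and -0.14 by their representing probe sets. At 18 weeks Hspa14, a ribosomal partner of Dnajc2, rose by 1.02 ± 0.21 (limma adjusted p = 0.0383), Hspa8 was at 0.66 (0.138), and Hspa1b at 0.67 (0.614). The list of nucleotide exchange factors, which release ADP from Hsp70, held 10 genes, none of them on the Hsp70 list. Of these 10, 0 rose and 3 fell at 25 weeks (all genes: 7.95% lower), with a median of -0.28. They were Hspbp1 at -1.05 ± 0.21, Sil1, the exchange factor of BiP, at -0.50 ± 0.12, and Bag5, named after its values were seen, at -0.38 ± 0.10, all of which were above control on the deposited scale (0.06, 0.44 and 0.45). None of the 10 passed at 18 weeks, where Bag2 was at 1.19 (limma adjusted p = 0.113). Of 10 Hsp90 chaperones and bridging co-chaperones, St13, the Hsp70-interacting protein Hip, rose at 25 weeks by 0.74 ± 0.14 (limma adjusted p = 0.0066), and Stub1, a chaperone-linked ubiquitin ligase, was at 0.67 (0.0744). Among 5 small heat shock proteins, chaperonins and heat shock factors 0 passed in either comparison, with Hsf2 at -1.29 (limma adjusted p = 0.102) at 25 weeks.

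**Figure D4:**
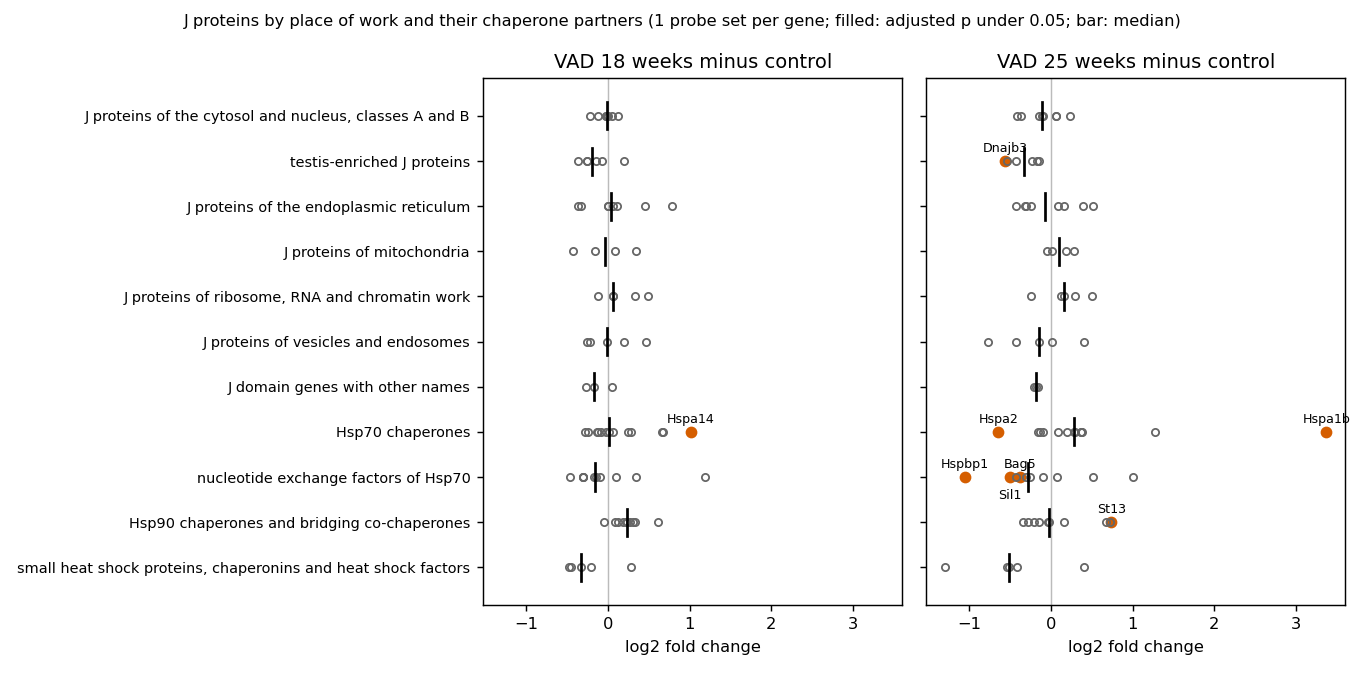
Log2 fold change of J proteins grouped by place of work and of their chaperone partners, 1 probe set per gene, for VAD 18 weeks minus control (left) and VAD 25 weeks minus control (right). Filled, named points passed an adjusted p under 0.05 and bars are medians: Hspa1b stands at 3.37 at 25 weeks, while the J protein groups hold 1 filled point, Dnajb3.

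The sign of most decreases differed between the deposited and the normalized signals, and was the same under both normalizations. The median of the 91 members at 25 weeks was -0.02 with quantile normalization, 0.09 with each array centred on its median and 0.93 for the signals as deposited, beside medians over all probe sets of -0.01, 0.07 and 0.92. The members called higher and lower were 4 and 6, 6 and 4, and 39 and 0 under these scalings. Of all probe sets 14.8%, 13.4% and 39.1% were called. With median centring the lower members stayed below control, with Dnajb3 at -0.51, Dnajb6 at -0.73, Dnajb1 at -0.58 and Dnajc1 at -0.94. Dnajc16 at -0.42 and Dnajc27 at -0.43 no longer passed there (limma adjusted p = 0.178 and 0.116). On the deposited scale Dnaja1 (2.53 and 2.21) and Dnajc3 (2.36 and 2.44) stayed above the median shift. The lower members lay below that shift but, Dnajc1 at -0.10 apart, above control, with Dnajb3 at 0.34, Dnajb6 at 0.11, Dnajb1 at 0.27, Dnajc16 at 0.42 and Dnajc27 at 0.41.

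**Figure D5:**
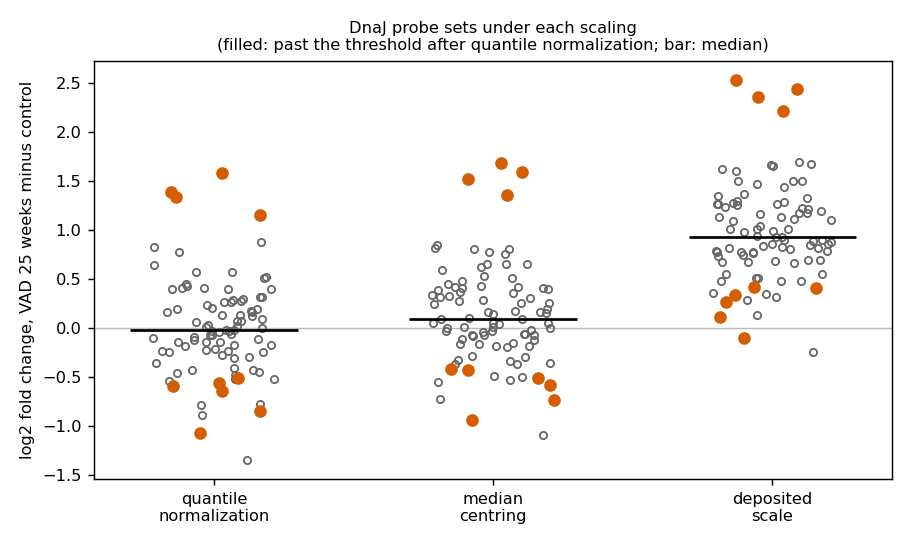
Log2 fold change of the 91 DnaJ probe sets, VAD 25 weeks minus control, under 3 scalings. Filled points are the 10 past the threshold after quantile normalization and bars are medians (-0.02, 0.09 and 0.93): the 4 filled points above the rest stay above it under each scaling, while the family as a whole moves with the scale.

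VAD at 25 weeks was also set against VAD at 18 weeks. Limma with the block called 0 of 91 members, where it called 0% of all probe sets, and 13 members had an unadjusted p under 0.05 (all probe sets: 11.6%). The smallest adjusted p among the members was 0.203, for the Dnaja1 probe set 1459835_s_at at 0.71, followed by Dnajb3 at -0.42 (limma adjusted p = 0.208). Leaving out either dim array, which nearly repeats the fit without both, gave 1 member higher and 1 lower. The share of all probe sets called was then 1.44% without control replicate 3 and 1.43% without VAD 25-week replicate 3. For 66 of the 91 the 95% interval lay within 1 log2 unit. The comparisons of each VAD group with control share the control arrays, so their values are given side by side and were not correlated.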

How the data were processed

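Biotinylated cRNA from 100 ng of total RNA was made with the Affymetrix protocol of 2 amplification cycles, per the labels' protocols. The authors deposited 1 MAS5 intensity for each probe set, named so in the submitters' processing notes, and its range shows a linear scale. MAS5's version and scaling target are not stated in the labels. Signals were taken as log2(signal + 3.259), the pseudocount being their 25th percentile, and quantile normalized over all 45101 probe sets, and fold changes of low signals are therefore understated. The 64 control probe sets were then left out, and the 27022 probe sets whose mean reached the 40th percentile were tested. Gene symbols came from a platform table, 3 probe sets with several symbols (Dnajc19) were left out, and all 104 members were found in a RefSeq gene table.

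Differences were fitted with limma 3.58.1 in R 4.3.3 over all 9 arrays and all kept probe sets (lmFit, contrasts, eBayes with a variance trend), with Benjamini-Hochberg adjustment per comparison over all of them and a threshold of 0.05. The terms were group and a block for arrays whose trimmed mean was under 0.5 of the median, leaving 5 residual degrees of freedom. The scripts were tested on simulated data. The members, lists, normalization and block were chosen with earlier results of these data known. Named genes were those called by their representing probe set, the 3 smallest p per class and comparison, and 12 chosen for their roles. Alternatives were group alone, no dim arrays, other scalings, pseudocount and filter, no trend, array weights, a replicate block and leaving out each array.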

Additional observations from a re-analysis of the deposited data

How the results depend on the processing

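The 25-week counts of members higher and lower were 4 and 6 as reported. They were 0 and 0 with group alone, 8 and 6 without the dim arrays, 39 and 0 on the deposited scale, 6 and 4 with median centring, 4 and 2 without the variance trend, 11 and 12 with array weights, and from 4 to 8 and from 2 to 8 when 1 array was left out. Without the dim arrays 15.7% of all probe sets were called at 25 weeks. The 18-week counts, 0 and 0 as reported, were 3 and 1 without the dim arrays and with array weights, and from 0 to 3 and from 0 to 1 when 1 array was left out. Without the dim arrays 3.98% of all probe sets were called at 18 weeks, and with array weights 4.02%. Between the VAD groups the member counts were 0 and 0 as reported, 1 and 1 without the dim arrays, 7 and 0 on the deposited scale, 2 and 5 with array weights, and from 0 to 1 each when 1 array was left out. The share of all probe sets called there was 1.67% without the dim arrays, 6.68% on the deposited scale and 5.72% with array weights. On the deposited scale 5 decreases turned sign: Dnajb3 to 0.34, Dnajc16 to 0.42, Dnajc27 to 0.41, and to 0.27 and 0.11 for the called probe sets of Dnajb1 and Dnajb6. Of the 10 calls at 25 weeks, 9 were kept without the dim arrays, 8 with median centring, 6 without the trend, 4 for the deposited signals, and 10 with a pseudocount of 16 and with array weights. The causes were not tested.

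Over all probe sets, limma called 2300 higher and 1699 lower at 25 weeks, which became 2790 and 822 with median centring, 10571 and 7 for the deposited signals, 1533 and 845 without the trend, and 3604 and 2974 with array weights. The 25-week share called, 14.8% as reported, was 6.62% without VAD 25-week replicate 2 (1108 and 681), 7.31% without VAD 25-week replicate 1 (1194 and 780), 7.71% without control replicate 1 (1354 and 730) and 9.71% without control replicate 2 (1667 and 956). At 18 weeks it called 358 higher and 36 lower, which became 859 and 217 without the dim arrays, 317 and 165 with median centring, 132 and 2 for the deposited signals, 0 and 0 without the trend, 872 and 214 with array weights, and between 36 and 834 higher when 1 array was left out. With no filter it called 247 and 19 at 18 weeks. Same-numbered arrays correlated in their deviations from the group means between -0.00469 and 0.69, and not every array correlated best with its own number, so the numbers were not taken as pairs. A replicate block gave 4 members higher and 5 lower at 25 weeks and 0 at 18 weeks, with 1553 and 1038 probe sets called in all at 25 weeks and 19 and 0 at 18 weeks. The number of arrays, 3 a group, limits the precision of every value.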
